A study of Mus musculus with 18 samples.

Results

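The genes described are the 7 core receptors and effectors of Hedgehog signalling, Ptch1, Smo, Hhip, Sufu, Gli1, Gli2 and Gli3, taken by symbol from a table of 43346 mouse genes. Their expression was read in 6 RNA samples, and their chromatin in peak lists of H3K27me3 and H3K4me3, over each gene and within 2.5 kb of either end. The cells were MC3T3-E1 subclone 4, an established clonal line of mouse calvarial pre-osteoblasts on a C57BL/6 background, at passage 9. All of them were kept for 3 days in osteogenic medium, and no genotype differed between the groups. The control arm received 0.25% DMSO, the vehicle, and the treated arm received 2.5 µM EPZ6438, an inhibitor of EZH2, the enzyme of Polycomb repressive complex 2 that writes H3K27me3. The labels do not say whether the treated arm contained the vehicle. RNA came from 3 samples per arm. Chromatin came from 2 samples for each mark and arm, read here as 1 merged list of peaks for each. Nothing in the labels says that samples of an arm were grown as separate cultures, and the p-values therefore reflect the spread of these samples alone, possibly a technical spread.

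In the absence of a Hedgehog ligand, the receptor Ptch1 holds back Smo, a membrane protein of the primary cilium, while Sufu restrains the Gli transcription factors and Gli3, and to a lesser extent Gli2, is processed into a repressor of target genes. Ligand binding to Ptch1 releases Smo, which lets full-length Gli2 and Gli3 activate targets, among them Gli1, Ptch1 and Hhip, so that an activator and 2 inhibitors of the pathway are themselves read out as targets. In bone, Indian hedgehog from chondrocytes is known to promote the osteoblast lineage. H3K27me3 marks genes held silent by Polycomb, and H3K4me3 marks promoters that are active or poised.

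The upstream stretches of 4 genes are shown because they lay wholly or nearly under a peak in one arm and under none in the other. That of Smo, partly covered by H3K4me3 in DMSO (146 of 250 bases) and wholly in EPZ6438, is not shown. They are the 250 bases before the RefSeq start of Ptch1, Gli3, Gli2 and Hhip (build GRCm38.p6, which is mm10), each written 5′ to 3′ on the gene's own strand, with every CpG dinucleotide in capitals, since CpG-dense promoters are the usual place of both marks. The Ptch1 stretch lies at chr13:63565736-63565985 on the minus strand, the Gli3 stretch at chr13:15463473-15463722 on the plus strand, the Gli2 stretch at chr1:119053620-119053869 on the minus strand and the Hhip stretch at chr8:80058009-80058258 on the minus strand. H3K4me3 peaks covered all 250 bases of Ptch1 and Gli3 in EPZ6438 and none of them in DMSO, an H3K27me3 peak covered 236 of the 250 bases of Hhip in DMSO and none in EPZ6438, and one covered all 250 bases of Gli2 in EPZ6438 and none in DMSO. DMSO H3K27me3 peaks lay close by on both sides of the Gli2 stretch.
Ptch1: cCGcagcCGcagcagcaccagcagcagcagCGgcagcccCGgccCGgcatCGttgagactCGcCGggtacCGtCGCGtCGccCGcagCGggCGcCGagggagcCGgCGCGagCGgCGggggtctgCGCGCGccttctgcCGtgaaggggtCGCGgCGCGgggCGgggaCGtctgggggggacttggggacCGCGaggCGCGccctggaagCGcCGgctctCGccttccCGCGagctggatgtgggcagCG
Gli3: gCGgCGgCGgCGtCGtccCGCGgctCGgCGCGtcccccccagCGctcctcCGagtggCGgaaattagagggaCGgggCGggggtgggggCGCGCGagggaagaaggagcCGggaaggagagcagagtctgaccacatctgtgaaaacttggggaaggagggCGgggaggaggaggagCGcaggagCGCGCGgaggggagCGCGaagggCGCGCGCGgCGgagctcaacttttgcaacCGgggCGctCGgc
Gli2: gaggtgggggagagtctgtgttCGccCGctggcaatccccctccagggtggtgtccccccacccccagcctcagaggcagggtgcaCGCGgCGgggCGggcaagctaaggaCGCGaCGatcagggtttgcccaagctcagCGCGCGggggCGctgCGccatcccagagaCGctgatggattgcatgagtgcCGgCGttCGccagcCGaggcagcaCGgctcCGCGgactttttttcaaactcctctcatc
Hhip: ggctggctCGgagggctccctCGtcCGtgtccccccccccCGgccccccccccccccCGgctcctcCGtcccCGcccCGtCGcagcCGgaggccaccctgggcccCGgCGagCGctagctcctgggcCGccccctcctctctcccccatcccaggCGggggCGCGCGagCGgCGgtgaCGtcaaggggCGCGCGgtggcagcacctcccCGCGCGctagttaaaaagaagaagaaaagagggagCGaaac
The 4 stretches were rich in CpG. Ptch1 held 41 CpG dinucleotides at a GC content of 78.4%, Gli3 34 at 72.8%, Hhip 28 at 76% and Gli2 22 at 67.2%, against medians of 6 and 52.4% over 32817 reference promoters. As many CpG dinucleotides as in Ptch1 were found in 1.09% of those promoters, as in Gli3 in 3.53%, as in Hhip in 7.61% and as in Gli2 in 14.8%. The stretches of Smo (15 CpG) and Sufu (8 CpG) were nearer to the median, and 6 of the 7 genes in all had an entry in the RefSeq promoter table. The Gli recognition sequence GACCACCCA, searched on both strands, was in none of the 6 stretches and in 0.225% of all promoters of that length. Its relaxed form GACCNCCCA (0.868% of promoters) and its core CCACCCA (8.11%), which overlap it, were in none of the 6 either.

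The 7 genes spanned a wide range of levels, and those with reads in both arms kept the same order. By RPKM, which is per length of gene, Smo was highest, followed by Gli3, Sufu, Ptch1, Gli1, Gli2 and Hhip. The libraries of neighbours in this order did not overlap within an arm, except for Gli2 and Hhip, both listed at 0 in DMSO and overlapping in EPZ6438. Mean Smo was 5.33 times mean Gli3 in DMSO and 6.48 times in EPZ6438, whereas mean Sufu stood at 2.39 times mean Ptch1 in DMSO and 1.52 times in EPZ6438. Of the 5 genes with enough reads to be tested, 1 rose with EPZ6438 and none fell, against 3.8% of 14213 tested genes that rose and 3.24% that fell (7.04% in either direction, limma with Benjamini-Hochberg adjustment, adjusted p under 0.05). Their median log2 change was 0.10, beside -0.03 over all tested genes. An unadjusted p under 0.05 was reached by 2 of the 5, Ptch1 and Gli3, and by 20.6% of all tested genes, and voom on recovered reads also gave 1 rise and 0 falls.

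**Figure D1:**
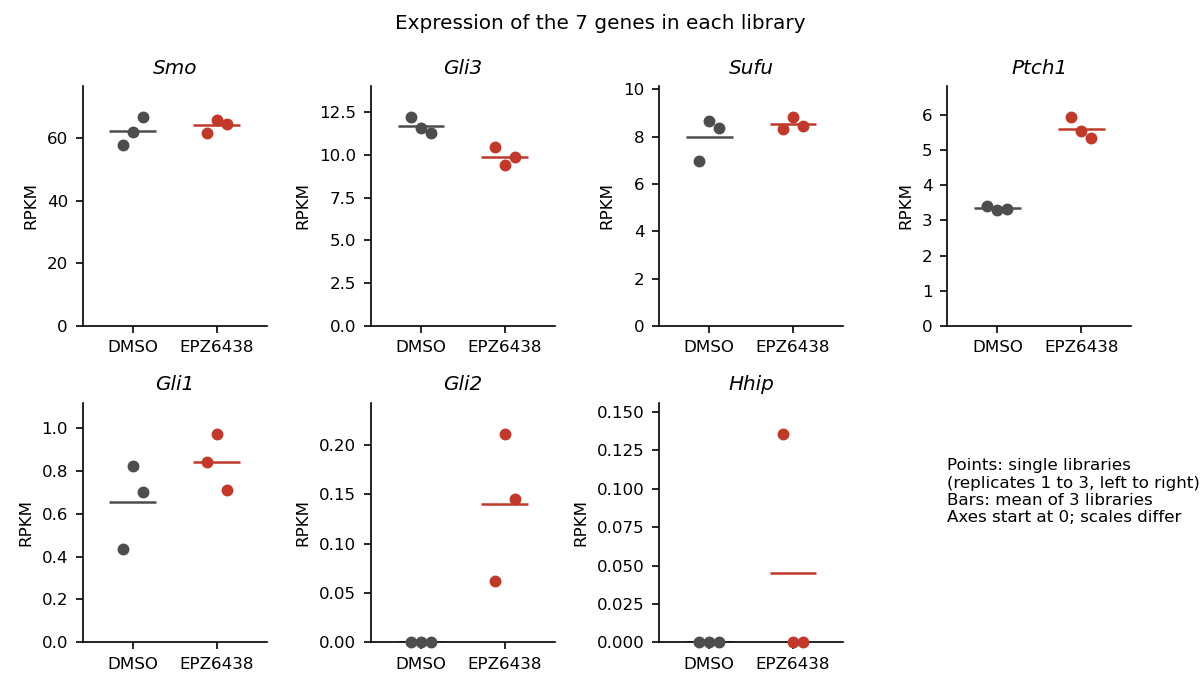
RPKM of each of the 7 genes (vertical axes, from 0, with a scale of their own) in the 3 DMSO and 3 EPZ6438 libraries, as points, with the mean of each arm as a bar. Ptch1 and Gli2 lay higher in all 3 EPZ6438 libraries than in any DMSO library and Gli3 lower, Smo, Sufu and Gli1 overlapped, and Hhip had reads in 1 library.

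Ptch1, the receptor that binds Hedgehog ligands and restrains Smo, was higher in EPZ6438. Its 3 DMSO libraries read 3.40, 3.31 and 3.34 RPKM and its EPZ6438 libraries 5.93, 5.54 and 5.36 RPKM, from 560 to 1170 reads a library. The arms were far apart and each was tight: means were 3.35 ± 0.0495 and 5.61 ± 0.295 RPKM (SD, n = 3), a ratio of 1.67. The log2 change of RPKM + 0.1 was 0.73 (SE 0.10, 95% interval 0.49 to 0.97, limma adjusted p = 0.00804). It was higher in 3 of 3 EPZ6438 libraries, as were 12.0% of tested genes with non-overlapping arms. The call ended when DMSO replicate 2 was left out, with a change of 0.72 and an adjusted p of 0.0543. In cultured cells as a whole, more cells expressing a gene and more RNA per cell cannot be told apart.

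Ptch1 (ENSMUSG00000021466, chr13:63508328-63573598) had no H3K27me3 peak in either arm over its 65271 bp or within 2.5 kb of it, although a window of 5 kb took in an H3K27me3 peak near an end in DMSO. Its H3K4me3 peaks lay around the RefSeq start, which is 7863 bp inside the gene's outer end in the table, so that no peak was near a table end and longer transcripts may run through this stretch. In DMSO there were 5 narrow peaks, 194 to 369 bp wide, none of them over the start itself, of which the nearest was 534 bp downstream. In EPZ6438 there were 4, and one of 1133 bp (chr13:63565025-63566157) lay over the start and over the printed stretch of 41 CpG dinucleotides. All 5 DMSO peaks overlapped a peak of the EPZ6438 list, as did 23.7% of all DMSO H3K4me3 peaks. Total peak length went from 1418 to 2910 bp, with 1 merged list per arm and so no replicate error.

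Smo, the transducer that Ptch1 restrains, was the most abundant member and differed little between arms. DMSO libraries read 57.9, 62.2 and 66.8 RPKM and EPZ6438 libraries 61.8, 65.9 and 64.7 RPKM, so the arms overlapped. Means were 62.3 ± 4.42 and 64.1 ± 2.09 RPKM (SD, n = 3). The log2 change was 0.04 (SE 0.08, 95% interval -0.14 to 0.23, adjusted p = 0.806). The gene (ENSMUSG00000001761, chr6:29735694-29761365) holds a pseudogene, Gm13717, and reads that fit both could have been counted for either.

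At the start of Smo, H3K4me3 was present in both arms, as 3 DMSO peaks of 182, 395 and 772 bp that gave way to 2 EPZ6438 peaks of 1038 and 1073 bp, the first over the start. Further inside, 13008 bp downstream, a 510-bp H3K27me3 peak overlapped an 862-bp H3K4me3 peak in DMSO, and neither list held a peak there in EPZ6438. A second H3K27me3 peak of 649 bp, 1490 bp upstream of the start, was also found in DMSO and not in EPZ6438. The loss of both H3K27me3 peaks thus stood beside a Smo level whose change had an interval spanning 0.

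Hhip, a membrane-anchored protein that binds and sequesters Hedgehog ligands, was close to absent. It had 0 reads in all 3 DMSO libraries and in EPZ6438 replicates 2 and 3, and 14 reads (0.136 RPKM) in EPZ6438 replicate 1. A single library therefore carried the whole signal. The same pattern, 0 in DMSO and reads in exactly 1 EPZ6438 library, was seen in 2.77% of 22019 protein-coding genes. The limit that a count of 0 allows (3 reads) was 0.118 to 0.160 CPM (counts in a library of 1000000 reads) in single libraries. Hhip did not pass the filter on low values, and without that filter its change had an adjusted p of 0.655 by limma.

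The chromatin of Hhip (ENSMUSG00000064325, chr8:79966115-80058006) differed between the lists. In DMSO 7 H3K27me3 peaks totalled 2617 bp, or 2.70% of the gene with its flanks, and the widest, 823 bp (chr8:80057422-80058244), lay over the start. In EPZ6438 there was a single 203-bp peak, 28952 bp into the gene, which overlapped none of the DMSO peaks. No H3K4me3 peak was found at Hhip in either arm, although its upstream stretch is the second richest in GC of the 6. The loss of the peak over the start was thus accompanied neither by an H3K4me3 peak nor by reads in more than 1 library.

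Sufu, the cytoplasmic inhibitor that binds Gli proteins, kept its level within the spread. DMSO libraries read 6.99, 8.64 and 8.35 RPKM and EPZ6438 libraries 8.34, 8.81 and 8.43 RPKM. DMSO replicate 1 lay below the rest, and the arms overlapped. Means were 8.00 ± 0.884 and 8.53 ± 0.252 RPKM (SD, n = 3), with a log2 change of 0.10 (SE 0.11, 95% interval -0.16 to 0.35, adjusted p = 0.674) that ranged from 0.00 without DMSO replicate 1 to 0.16 without DMSO replicate 2. At Sufu (ENSMUSG00000025231, chr19:46396896-46488804), H3K4me3 formed 4 peaks in DMSO and 3 in EPZ6438, all of them within 2.5 kb of the start and each overlapping a peak of the other arm. Such an overlap was found for 23.7% of all DMSO and 53.2% of all EPZ6438 H3K4me3 peaks. The pair just downstream of the start in DMSO (492 and 199 bp) was a single 873-bp peak in EPZ6438. One H3K27me3 peak of 180 bp lay 44301 bp inside the gene in DMSO and was not in the EPZ6438 list.

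Gli1, the activator that is itself induced by Hedgehog signalling, was low and variable. DMSO libraries read 0.435, 0.822 and 0.699 RPKM and EPZ6438 libraries 0.843, 0.972 and 0.708 RPKM, from 30 to 86 reads a library. DMSO replicate 1 was lowest, and the arms overlapped. Means were 0.652 ± 0.198 and 0.841 ± 0.132 RPKM (SD, n = 3). The log2 change was 0.35 (SE 0.24, 95% interval -0.22 to 0.92, adjusted p = 0.476). This interval holds both no change and a change as large as that of Ptch1, and the value was 0.12 without DMSO replicate 1.

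Gli1 (ENSMUSG00000025407, chr10:127329889-127341589) is short, and H3K27me3 peaks covered 16.2% of it with its flanks in DMSO, a cover reached by 6.31% of protein-coding genes. The 4 peaks were 437 to 1532 bp wide, and the widest (chr10:127343000-127344531), just beyond the higher-coordinate end, held a 180-bp H3K4me3 peak inside it. In EPZ6438 no H3K27me3 peak remained, and a 292-bp H3K4me3 peak (chr10:127341471-127341762) lay across the higher-coordinate end of the gene. That peak overlapped no DMSO peak. The lower-coordinate end overlaps Arhgap9, so reads there could belong to either gene.

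Gli2, the main activator downstream of Smo, went from no reads to a low level in every treated library. Its 3 DMSO libraries had 0 reads, and its EPZ6438 libraries 9, 35 and 20 reads, or 0.0623, 0.211 and 0.145 RPKM. The arms did not overlap, and among the EPZ6438 libraries replicate 1 was lowest and replicate 2 highest. Summed over libraries, 64 reads made 0.981 CPM (exact Poisson 95% interval 0.756 to 1.25) against a limit of 0.0452 CPM that 0 reads allows in the DMSO arm (3 reads over the group). The summed value was 21.7-fold above that limit and the lower end of the interval 16.7-fold. Against 0.0556 CPM, the upper end of the same kind of interval for 0 DMSO reads, both folds would be smaller. Interval and limit cover counting error only. It did not pass the filter on low values (at least 10 reads in 3 libraries) and was not tested with the other genes. Without that filter its log2 change of RPKM + 0.1 was 1.21 (SE 0.26, limma adjusted p = 0.0818). A pseudocount of 0.01 or voom on the recovered reads, both added after its values were seen, gave adjusted p = 0.0385 and 0.000933. The fitted change depends on the added constant.

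The pattern of 0 reads in every DMSO library and some in every EPZ6438 library was seen in 87 of 22019 protein-coding genes (0.395%), and the reverse in 20 (0.0908%). In all, 7294 of these genes (33.1%) had 0 reads in every DMSO library.

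Along Gli2 (ENSMUSG00000048402, chr1:118834132-119053619, 219488 bp) the DMSO list held 45 H3K27me3 peaks from one end of the gene to the other. They were 168 to 1965 bp wide, 6 of them at least 1000 bp, with a median gap of 2857 bp and a longest gap of 22686 bp. As many peaks were found at 111 protein-coding genes, Gli2 included, and as large a covered share (10.9%) in 10.6% of them. The widest peak began 142 bp downstream of the start. In EPZ6438 4 peaks were left, covering 1.07%, of which 2 overlapped DMSO peaks. A 1235-bp peak (chr1:119047235-119048469) remained 5150 bp inside the gene, and a 470-bp peak (chr1:119053574-119054043) lay over the start and the printed stretch, where the DMSO list had none. The DMSO list had peaks on both sides of that stretch, 142 bp downstream and 715 bp upstream of the start. Within 2.5 kb of the start, peaks covered 2245 bp in DMSO and 470 bp in EPZ6438. H3K4me3 in DMSO formed 5 narrow peaks at Gli2, 177 to 307 bp wide, each inside the gene and over an H3K27me3 peak. Of all H3K4me3 peaks, 48.0% in DMSO and 0.968% in EPZ6438 overlapped an H3K27me3 peak of the same arm. No H3K4me3 peak was found at Gli2 in EPZ6438, the arm in which its reads appeared.

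**Figure D2:**
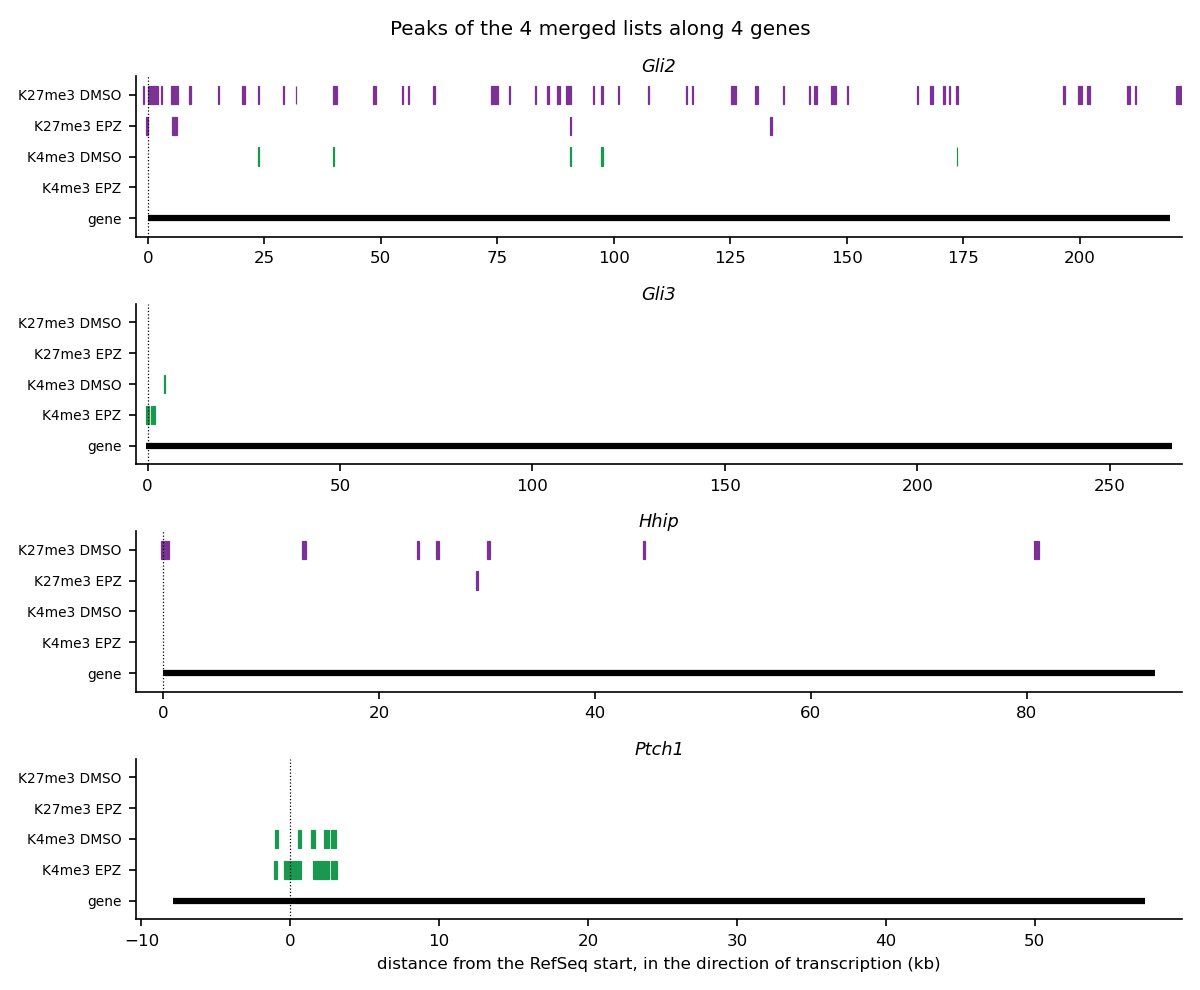
Peaks of the 4 merged lists (purple H3K27me3, green H3K4me3) along Gli2, Gli3, Hhip and Ptch1, placed by distance from the RefSeq start in kb along the direction of transcription, with the extent of the gene as a black line and the start as a dotted line. Gli2 carried 45 H3K27me3 peaks in DMSO and 4 in EPZ6438, Hhip 7 and 1, and Gli3 and Ptch1 none.

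Gli3, the Gli protein that is the main source of the repressor form, was the second most abundant member. DMSO libraries read 12.2, 11.6 and 11.3 RPKM and EPZ6438 libraries 10.4, 9.40 and 9.88 RPKM, from 1897 to 2746 reads a library. All 3 EPZ6438 libraries lay below all 3 DMSO libraries, a separation in this direction shown by 14.7% of tested genes (26.7% in either direction). Means were 11.7 ± 0.467 and 9.90 ± 0.523 RPKM (SD, n = 3). The log2 change was -0.24 (SE 0.09, 95% interval -0.44 to -0.03, limma adjusted p = 0.176), so Gli3 did not pass the threshold.

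Gli3 (ENSMUSG00000021318, chr13:15463235-15730026, 266792 bp) had no H3K27me3 peak in either arm, in contrast to Gli2, which is of like length. Its H3K4me3 peaks differed in place. The DMSO list held 1 peak of 246 bp, 4176 bp downstream of the start, and the EPZ6438 list held 3, of which one of 735 bp (chr13:15463387-15464121) lay over the start and the 34 CpG dinucleotides printed above. No peak was shared between the arms, where 23.7% of all DMSO and 53.2% of all EPZ6438 H3K4me3 peaks were. The level of Gli3 RNA and the H3K4me3 peaks at its start thus differed in opposite directions, the former short of the threshold and the latter without replicates. The lower end of Gli3 overlaps Gm6556 by the table's coordinates. The 735-bp peak also lay over the higher-coordinate end of Gm6556 and cannot be assigned to Gli3 alone. Gm6556 had means of 1.33 ± 0.240 RPKM in DMSO and 0.916 ± 0.165 RPKM in EPZ6438. Its log2 change was -0.49 (limma adjusted p = 0.219) and did not pass. The antisense gene Gm26645 lies outside Gli3 and shares no base with it. How strand was treated in counting is not given in the sources used here, so reads of Gm6556 in the overlap cannot be told apart from those of Gli3. The DMSO mean of Gm26645, picked out once its values had been seen, was 1.84 ± 0.415 RPKM and the EPZ6438 mean 0.847 ± 0.201 RPKM (a log2 change of -1.03 with SE 0.23 and adjusted p = 0.0401), a call that ended without any 1 of the 6 libraries, with other filters and with voom (adjusted p = 0.0572).

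Together, the RNA of the 3 Gli genes came mostly from Gli3. Of their summed RPKM, Gli3 made up 94.7 ± 1.66% in DMSO and 91.0 ± 1.86% in EPZ6438 (SD, n = 3). Gli1 made up 5.30 ± 1.66% and 7.74 ± 1.32%, and Gli2 0% and 1.30 ± 0.725%. Gli3 therefore kept by far the largest share in all 6 libraries, from 88.8 to 96.6%. These are shares of RNA and say nothing of the proteins or of how Gli3 was processed.

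Counted over the 7 genes, fewer carried H3K27me3 in EPZ6438 than in DMSO. An H3K27me3 peak was found at 5 members in DMSO (Smo, Hhip, Sufu, Gli1 and Gli2) and at 2 in EPZ6438 (Hhip and Gli2), against 41.5% and 13.7% of protein-coding genes. For Sufu this was a single peak of 180 bp. A longer gene has more room for a peak, and the members span 11701 to 266792 bp. The shares of genes with a peak anywhere over them, for either mark, were not matched for gene length. Near an end of the gene the counts were 4 and 1, against 31.1% and 6.82%. All 5 members marked in DMSO had fewer peaks in EPZ6438, as had 97.2% of the genes marked in DMSO, and 3 of the 5 had none, as had 67.6%. The members' peaks fell from 59 to 5, or to 8.47%, and those of the whole lists from 143399 to 20764, or to 14.5%. Of the 59 peaks, 45 of them at Gli2, 2 (3.39%) overlapped a peak of the EPZ6438 list, where 10.8% of all DMSO peaks did.

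H3K4me3 peaks were found at 6 members in DMSO (all but Hhip) and at 5 in EPZ6438 (all but Hhip and Gli2), against 50.1% and 46.5% of protein-coding genes. Near an end the counts were 3 and 4, against 39.5% and 43.6%, and Ptch1 is in neither count because its peaks lie inside the table's ends. The members' H3K4me3 peaks went from 21 to 13 while their median width went from 246 to 456 bp, and in the whole lists from 40113 to 16216 peaks with median widths of 212 and 401 bp. A peak of the other arm was overlapped by 57.1% of the members' DMSO peaks and 69.2% of their EPZ6438 peaks. In the whole lists these shares were 23.7% and 53.2%. The lists give no peak height. An H3K27me3 and an H3K4me3 peak overlapped at 3 members in DMSO (Smo, Gli1 and Gli2) and at 0 in EPZ6438, against 14.1% and 0.272% of protein-coding genes. These counts describe 1 merged list each, without a test.

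Over the reference promoters, here 250 bases before to 50 after the start, an H3K4me3 peak was present in EPZ6438 and not in DMSO at 3 of 6 members, Ptch1, Gli3 and Sufu. For Sufu the overlap was 9 bases. The same gain was found at 9.62% of 32817 promoters and the reverse at 1.39%, while promoters with an H3K4me3 peak made up 9.49% in DMSO and 17.7% in EPZ6438. Smo had one in both arms. H3K27me3 lay over the promoter of Hhip in DMSO and not in EPZ6438, a loss found at 2.68% of promoters, and over that of Gli2 in EPZ6438 and not in DMSO, a difference found at 0.381%. The Gli2 promoter lay in a gap between DMSO peaks. Within 2.5 kb of its start, H3K27me3 peaks covered 2245 bp in DMSO and 470 bp in EPZ6438. In all, 3.33% of promoters held an H3K27me3 peak in DMSO and 1.02% in EPZ6438.

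**Figure D3:**
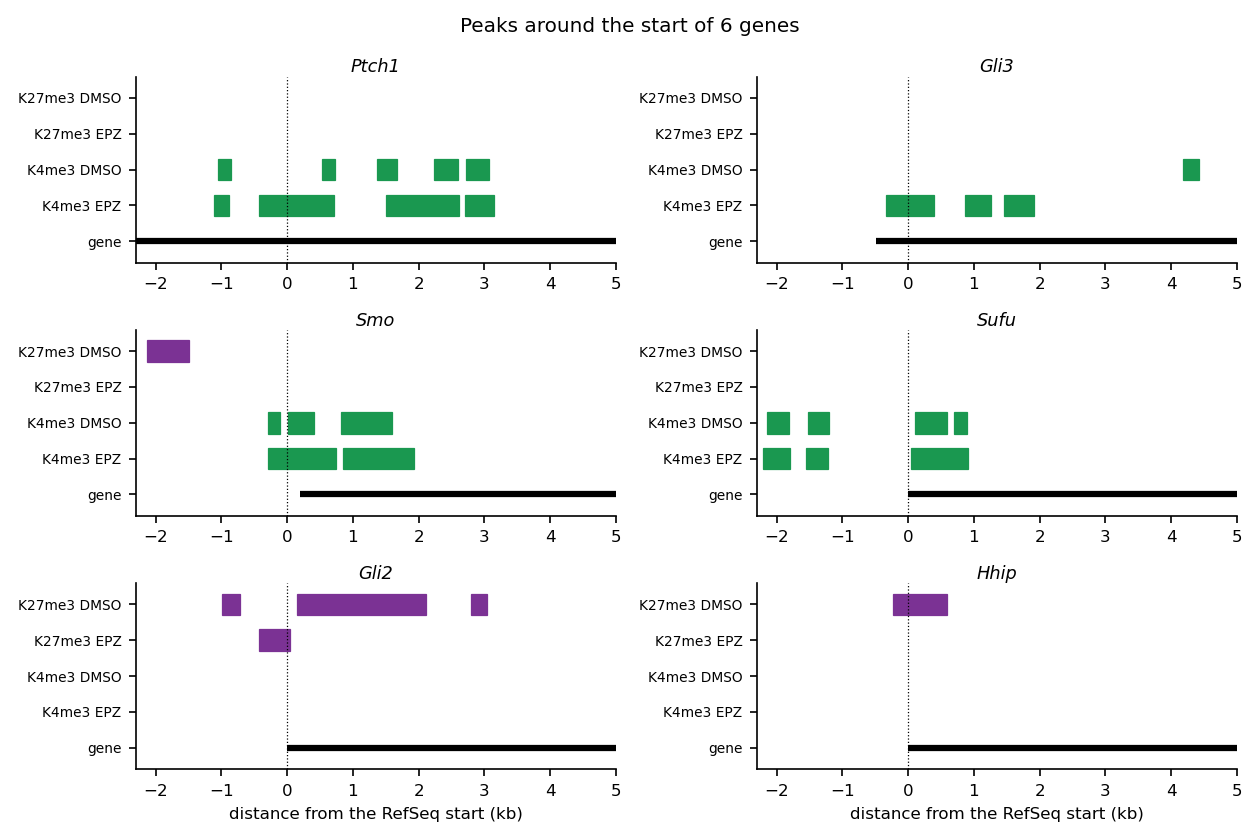
Peaks around the RefSeq start of 6 genes (horizontal axes, distance in kb, positive downstream, start as a dotted line), with the same colours for H3K27me3 (purple) and H3K4me3 (green) and the gene as a black line. H3K4me3 peaks lay over the starts of Ptch1, Gli3 and Smo in EPZ6438, an H3K27me3 peak lay over the start of Hhip in DMSO, and one lay over the start of Gli2 in EPZ6438, with DMSO peaks on both sides of it.

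**Figure D4:**
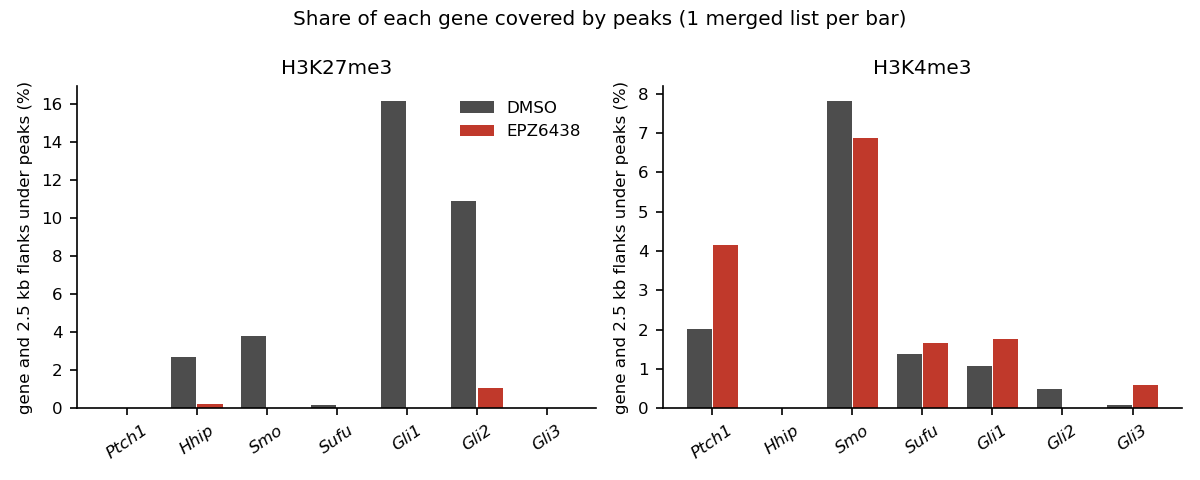
Share of each gene with its 2.5 kb flanks that lay under peaks, in percent, for H3K27me3 (left) and H3K4me3 (right), in DMSO (grey) and EPZ6438 (red), 1 merged list per bar. H3K27me3 cover was largest at Gli1 (16.2%) and Gli2 (10.9%) in DMSO, and H3K4me3 cover of Ptch1 went from 2.02% to 4.14%.

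The other genes of the pathway were taken from 4 lists of 78 genes, of which 58 were tested, 4 rose, 2 fell and 52 did not pass, with a median log2 change of -0.07. Over all tested genes, for these and the following counts, 3.8% rose and 3.24% fell. Among 16 genes of ligands, their release and co-receptors, 8 were tested. The ligands themselves were near 0, with 2 reads of Shh, 5 of Dhh and 34 of Ihh over all 6 libraries. Scube3, which is secreted and aids the release of lipid-modified Hedgehog, rose (log2 change 1.22, SE 0.16, adjusted p = 0.00539). Gas1, a co-receptor that presents ligand to Ptch1, had means of 28.0 ± 2.61 and 9.95 ± 0.469 RPKM and fell by 1.48 on the log2 scale (SE 0.10, adjusted p = 0.000515). The 6 others tested did not pass, among them the co-receptors Cdon, at 31.4 and 30.9 RPKM, and Boc, at 6.50 and 7.34 RPKM.

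None of the listed genes between Smo and the Gli proteins passed the test, which does not show that they were unchanged. Of the 19 genes of the cilium and the Smo-to-Gli relay, 18 were found and tested, and 0 passed by limma on RPKM or by voom, with a median log2 change of -0.14. An unadjusted p under 0.05 was reached by 4 of them, a share near the 20.6% of all tested genes. They were the kinesin subunit Kif3a (-0.31, adjusted p = 0.0732), Evc (-0.30), Gpr161 (-0.30) and Arrb2 (0.32), named here after their values were seen. Ift27, an intraflagellar transport protein and the most abundant of them, was at 36.5 and 34.8 RPKM, and Kif7, the ciliary kinesin that organises Gli and Sufu, at 2.93 ± 1.07 and 4.22 ± 0.245 RPKM (log2 change 0.58, adjusted p = 0.284). Of 20 kinases, ligases and cofactors that act on Gli, 19 were tested and 0 passed by either, with a median of -0.07 and 1 gene, the casein kinase Csnk1a1 (-0.32), at an unadjusted p under 0.05. Gnas, which encodes the stimulatory G protein alpha subunit upstream of protein kinase A and led this list in abundance, was at 116 and 124 RPKM.

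Among 24 known targets outside the 7 genes, 13 were tested, 3 rose and 1 fell, with a median log2 change of 0.07, where 3.8% of all tested genes rose and 3.24% fell. Igf2, a growth factor, had means of 0.882 ± 0.0235 and 1.91 ± 0.325 RPKM and rose by 1.02 (SE 0.16, adjusted p = 0.0119). Ccnd1, the G1 cyclin D1, had means of 111 ± 6.51 and 156 ± 4.22 RPKM and rose by 0.50 (SE 0.07, adjusted p = 0.0101), and Bmp4, a bone morphogenetic protein, changed by 0.57 (SE 0.11, adjusted p = 0.0298). Foxf1, a forkhead factor, changed by -0.40 (SE 0.09, adjusted p = 0.0406). These targets answer to other pathways too, and 9 of the 13 did not pass. Scube3 and Gas1 kept their calls with any 1 library left out, whereas Foxf1 kept its call in 0 of 6 such fits, Bmp4 in 2, Ccnd1 in 3 and Igf2 in 4. With no filter on low values Bmp4 (adjusted p = 0.0603) and Igf2 (adjusted p = 0.0549) lost their calls.

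**Figure D5:**
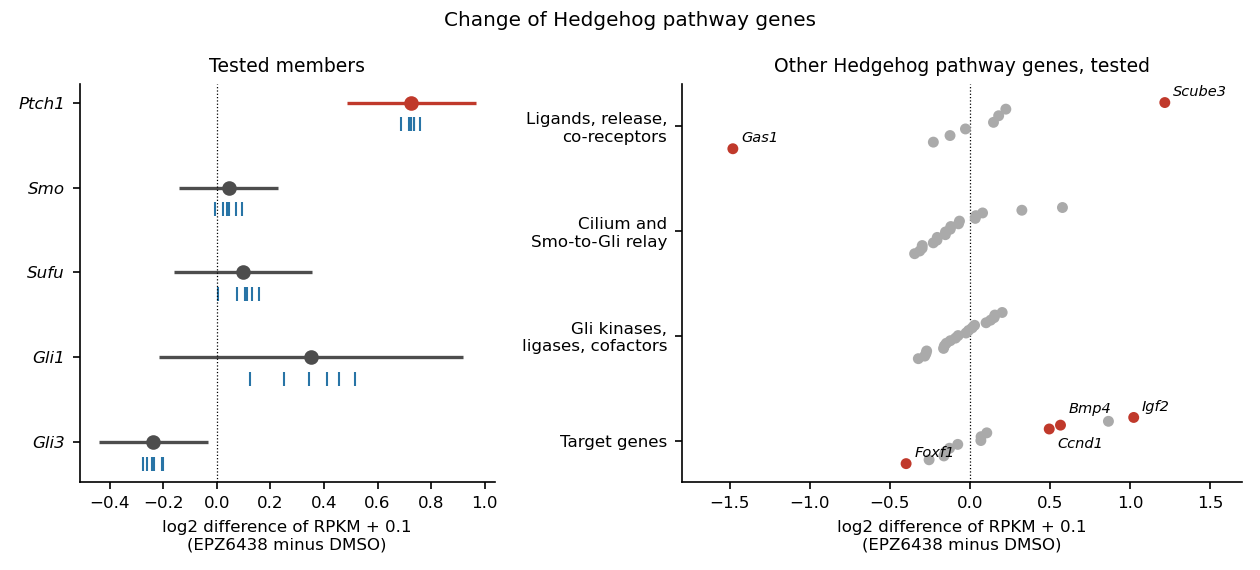
Log2 difference of RPKM + 0.1, EPZ6438 minus DMSO (horizontal axes), for the 5 tested members with 95% intervals and, as blue ticks, the values with each library left out (left), and for the tested genes of the 4 pathway lists (right), with genes of adjusted p under 0.05 in red and named. Ptch1 was the 1 member in red, at 0.73, and Gas1 and Scube3 lay farthest from 0, at -1.48 and 1.22.

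Genes with a profile like that of Ptch1 over the 6 libraries were found by the root mean square distance of centred log2 values. The nearest 5 were Sipa1l2 (0.0350), Scn1a (0.0457), Pxylp1 (0.0575), Cxadr (0.0589) and Dtx4 (0.0602), where the median distance of all tested genes was 0.421. Scn1a was at 0 in DMSO, so its closeness rests on the added 0.1 RPKM. Pxylp1 went from 6.86 to 11.5 RPKM and Dtx4 from 2.80 to 4.88 RPKM. Nearest to Gli1 were Acrbp (0.0897), Gm7535 (0.0916) and Enpp3 (0.0963), at a median distance of 0.388 for all genes. The distances describe these 6 libraries and carry no test.

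The libraries held 18807156 to 25365513 reads in genes, with 18289 to 19196 genes read at least once. Osteoblast lineage markers summed to 3436 to 6013 RPKM in DMSO and 5451 to 7294 RPKM in EPZ6438, with 6 of 10 rising and 1 falling (Spp1), beside 3.8% and 3.24% of all tested genes. Col1a1 (means of 2169 and 2955 RPKM) and Col1a2 (2021 and 2348 RPKM) made up most of these sums. Neither of these collagen genes passed (limma adjusted p = 0.410 and 0.551). Some markers of other cell types moved as well, and others did not. The sum of 7 chondrocyte markers was 18.9 to 29.3 RPKM in DMSO and 91.5 to 121 in EPZ6438, with 2 of 4 tested rising (Col2a1 and Hapln1) and Acan at 0 throughout. Col2a1, with means of 14.6 and 91.0 RPKM, made up most of that sum. Sox9 (log2 change -0.15) and Comp (-0.07) did not pass. Of 6 neuronal markers 1 of 3 tested rose (Tubb3), with sums of 8.47 to 10.3 and 31.5 to 39.5 RPKM and Rbfox3 and Elavl4 at 0. Tubb3, with means of 8.00 and 33.6 RPKM, made up most of those sums. Map2 (log2 change -0.27) and Syp (0.28) did not pass. Of 6 skeletal muscle markers 1 of 2 tested rose (Des), with sums of 1.34 to 1.82 and 2.49 to 3.64 RPKM and Myod1 and Myog at 0. Blood cell markers summed to 15.6 to 18.5 and 18.8 to 21.6 RPKM with 0 of 3 passing by limma or voom, 1 at an unadjusted p under 0.05 and Hbb-bs at 0, adipocyte markers, none of them tested, to 0.339 to 0.616 and 0.161 to 0.268 RPKM with Cfd at 0, and endothelial markers to at most 0.0683 RPKM, with Cdh5, Kdr and Emcn at 0. The part of these shifts in the changes of Ptch1, Gli2 and the pathway genes was not tested.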

How the data were processed

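RNA of 6 samples and merged peak lists of 2 histone marks were read as deposited. The authors gave expression as RPKM, per the file headers. The scaling, by gene length and by 1000000 gene reads, was inferred from the values. The submitters' processing notes name STAR 2.6.1c, Subread and MACS2 among others, with build mm10. For annotation release, strand setting and peak threshold, nothing is given in the sources used here. The deposited peak lists hold other values, starts and ends with no height.

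Whole reads were recovered from 100% of RPKM values (tolerance 0.001), and intervals and floors on them cover counting error only, since reads carry no molecular identifiers. Genes with at least 10 reads in 3 libraries were tested with limma 3.58.1 (two-sided, empirical Bayes with trend, R 4.3.3) on log2(RPKM + 0.1), with Benjamini-Hochberg adjustment over all 14213. On this scale the change of low genes is understated. The members and lists were chosen with earlier results of these data known. Named were all members, up to 6 passing genes per pathway list (the most abundant where none passed) and the nearest profiles of Ptch1 and Gli1. Other names show members of a list that did not pass, or are marked as singled out. Of 78 pathway genes, Mosmo was not matched, and the result of 1 single gene is not reported here. Peaks sharing 1 bp or more counted as overlapping (pandas 2.3.3), and figures were drawn with matplotlib 3.10.9. Upstream bases came from RefSeq (GRCm38.p6). The fit was tested on simulated reads for 14046 genes: 59.2% of 1.5-fold, 93.8% of 2-fold and 100% of 4-fold changes were recovered, with 12 false calls of 185. Those reads were drawn with the same assumed dispersion for every gene, so the rates describe that setting and not the power in these libraries. The chi-square per gene between replicates of an arm was 6.53 to 62.4, beyond sampling noise. Alternatives were other pseudocounts, filters, scaling, voom, a replicate block, left-out libraries, and other windows and peak widths.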

Additional observations from a re-analysis of the deposited data

How the results depend on the processing

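Of 7 genes, 1 rose, and this count was 0 without DMSO replicate 2 and 0 to 1 over all fits with 1 library left out. It was 2, with Gli2 added, when no filter was used with a pseudocount of 0.01 RPKM or with voom, both chosen after seeing the data (Gli2 3.76, adjusted p = 0.0385, and 5.29, adjusted p = 0.000933). The change of Ptch1 was 0.60 to 0.76 over 17 fits and passed in 16, with 0.69 to 0.76 (adjusted p = 0.0144 to 0.0543) when a library was left out and 0.72 without DMSO replicate 2. Smo was at -0.00698 without DMSO replicate 1 (up to 0.10 over left-out libraries), never past the threshold. Gli3 was between -0.28 and -0.20 and Gli1 between 0.12 and 0.52 and Sufu between 0.00 and 0.16, and none passed in any fit. Without a filter Hhip was at 0.41 (adjusted p = 0.655).

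Calls over all genes numbered 1001, and 628 without a filter, 671 without a filter at 0.01 RPKM, 335 without DMSO replicate 2 and 381, 372 and 309 without EPZ6438 replicates 1, 2 and 3. Whether replicate numbers pair the samples was not settled. Deviations of same-numbered libraries correlated at 0.410, 0.0781 and 0.0561 over 14213 genes, and those of differently numbered libraries at -0.405 to 0.331. A replicate block called 1051 genes and gave 0.73 for Ptch1 (SE 0.12, adjusted p = 0.0173), and Foxf1 did not pass with it (adjusted p = 0.0658). Members with an H3K27me3 peak near an end numbered 2 in DMSO at a window of 1 kb and 2 in EPZ6438 at 5 kb, where Smo joined Gli2, and Ptch1 joined the DMSO count. With peaks of at least 400 bp, 1 member had H3K27me3 in EPZ6438, 2 had H3K4me3 in DMSO, and both marks overlapped at 1 in DMSO. Gli1 had no value under the filter of 1 RPKM, and Gli2 and Hhip had one only without a filter. The planned fits with edgeR and DESeq2 were not run, a choice made because the deposited values are RPKM. The recovered reads could have served for them, and voom was the only model fitted to those reads.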
